A study of Mus musculus with 15 samples.

Results

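Lung tissue was set against liver tissue in mice of the CS group, which received the control diet without added phytosterols. RNA sequencing counts of 7 of the 15 libraries of the series were used for this, 4 from livers (CS01, CS02, CS04 and CS09, replicates 1 to 4) and 3 from lungs (CS01, CS02 and CS04, replicates 1 to 3). The members were chosen by tissue and diet alone. All animals were wild type C57BL/6J mice, male by the methods of the study, with an age label of 28 weeks (by the methods the mice were weeks old when bought, and their later feeding periods add up to the same number of weeks, so the label matches the time of feeding and not the age), and lung and liver of CS01, CS02 and CS04 came from the same mice. The 8 libraries of mice fed phytosterols (PS group, 5 livers and 3 lungs), which otherwise had the same strain and genotype, served as a repeat of the tissue comparison, for the test of whether it differed between the diets and in an alternative fit over all libraries. Each library was made from a piece of frozen tissue, so a lower value in one organ can come from fewer cells of a type or from less RNA per cell, and these cannot be told apart. Nor can the organ be told apart from anything that differed between the handling of lung and liver pieces, since no library holds both.

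The liver is built mainly of hepatocytes, which release most plasma proteins into the blood, turn ammonia into urea, store and make glucose, make bile acids from cholesterol and inactivate foreign compounds through cytochrome P450 and conjugating enzymes. The lung exchanges gas across flat alveolar type 1 cells lying against capillaries, while alveolar type 2 cells release surfactant, and the airways are lined by secretory club cells and ciliated cells. Both organs hold endothelium, fibroblast-like cells and resident macrophages, which take a different form in each organ.

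Hepatocyte genes are known to be controlled in part by HNF1 factors and genes of motile cilia by RFX factors, so promoters of the 2 gene groups are shown with the short words these factors are known to bind. The stretches are the 100 bases before the start site of the RefSeq transcript in GRCm38.p6, written in the direction of the gene, for the 4 members with the highest lung or liver level that hold the word in this stretch. They were picked with the values known, and 1 of the near-identical Serpina1 copies was kept. The capitals mark GTTAAT, the short HNF1 site, or its reverse complement, in promoters of Alb (serum albumin, chr5:90460770-90460869, plus strand), Gc (vitamin D binding protein, chr5:89457899-89457998, minus strand), Serpina1a (an alpha-1-antitrypsin, chr12:103863620-103863719, minus strand) and Mug1 (murinoglobulin, a protease inhibitor, chr6:121838441-121838540, plus strand).
Alb: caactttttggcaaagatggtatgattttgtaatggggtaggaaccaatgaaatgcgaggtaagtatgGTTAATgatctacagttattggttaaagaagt
Gc: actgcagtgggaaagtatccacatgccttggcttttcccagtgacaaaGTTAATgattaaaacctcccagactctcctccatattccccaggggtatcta
Serpina1a: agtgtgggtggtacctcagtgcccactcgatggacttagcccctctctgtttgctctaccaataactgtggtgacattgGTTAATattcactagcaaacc
Mug1: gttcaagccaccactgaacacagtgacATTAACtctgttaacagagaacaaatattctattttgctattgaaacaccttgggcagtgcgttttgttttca
In the promoters of Dynlrb2 (a dynein light chain, chr8:116504915-116505014, plus strand), Dnah10 (an axonemal dynein heavy chain, chr5:124724985-124725084, plus strand), Sntn (sentan, of the ciliary tip, chr14:13670776-13670875, plus strand) and Hydin (of the central pair of cilia, chr8:110266877-110266976, plus strand), the capitals mark GTTGCC, the short RFX site, or its reverse complement.
Dynlrb2: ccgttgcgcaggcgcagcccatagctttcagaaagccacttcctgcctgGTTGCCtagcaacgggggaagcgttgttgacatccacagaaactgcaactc
Dnah10: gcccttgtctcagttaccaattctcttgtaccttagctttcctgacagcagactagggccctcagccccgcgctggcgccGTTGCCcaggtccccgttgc
Sntn: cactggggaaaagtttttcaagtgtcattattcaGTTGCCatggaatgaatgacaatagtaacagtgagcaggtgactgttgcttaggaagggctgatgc
Hydin: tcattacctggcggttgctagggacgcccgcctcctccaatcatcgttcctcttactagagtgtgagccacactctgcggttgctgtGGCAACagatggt
Promoters of 10912 of the 16568 genes tested could be matched to within 1000 bases of the gene start in the files. On either strand of the 250 bases before the start, GTTAAT lay in 12 of 23 plasma protein promoters (52.2%), in 7 of 22 complement promoters (31.8%) and in 477 of all 10912 (4.37%). Other hepatocyte lists held it in 4 of 23 coagulation, 6 of 35 cytochrome P450, 2 of 20 urea cycle and amino acid and 1 of 14 bile acid promoters, and among lung lists it lay in 3 of 15 promoters of airway secretory genes (20.0%). Among genes more than 4-fold higher in the liver it lay in 106 of 1064 (9.96%), and among those more than 4-fold higher in the lung in 93 of 1851 (5.02%). GTTGCC lay in 15 of 39 cilia promoters (38.5%) against 1188 of all (10.9%), and in 1 of the 23 plasma protein promoters. The TATA box word TATAAA lay in 14 of 35 promoters of cytochrome P450 families 1 to 4 (40.0%) and 6 of 14 of bile acid genes (42.9%), and in 4 of 15 of airway secretory (26.7%) and 4 of 16 of surfactant genes, against 773 of all (7.08%). CAAGTG, the core word of NKX2-1, lay in 3 of 16 promoters of surfactant and type 2 cell genes and in 0 of 13 of type 1 cell genes, against 9.64% of all. Liver lists held this word as well, in 8 of 35 cytochrome P450 (22.9%) and 5 of 23 plasma protein promoters (21.7%). Both strands were read and occurrences of the 4 words may overlap by some of their bases. A match describes only the sequence, and members of 1 gene family can share a promoter by descent.

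Liver libraries held 15366668 to 16644617 gene counts and lung libraries 17934930 to 19396057. Liver replicate 2 stood apart from the other livers, with 14.4% of its counts on mitochondrial genes against 3.33 to 4.45%, and 15961 genes with a count against 18250 to 18601. Levels are given as counts per 1000000 counts after TMM normalisation (CPM), a scale that is set so that most genes of similar level agree between libraries. Its scaling factors were 0.604 to 0.706 in the livers and 1.74 to 1.75 in the lungs, so CPM of a liver sum to more than 1000000 and those of a lung to less. The defining genes of both organs stood on the side of their labels, with Alb, Apoa1 and Cyp2e1 among the 10 genes with most counts in the livers and Scgb1a1 and Sftpc among those of the lungs. Lung replicate 1 carried more transcripts of hepatocyte genes than the other lungs. Its Alb level was 34.8 CPM against 0.182 and 0.384, and 55 of the 1667 genes more than 4-fold higher in the liver had at least 10 counts in this lung and none in the other lungs, against 0 such genes for each of the others. The source of these traces was not tested.

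Of the 16568 genes with enough counts to test, 5846 (35.3%) had a higher level in the lung and 4807 (29.0%) in the liver at an adjusted p below 0.05 (edgeR quasi-likelihood test, Benjamini-Hochberg). The differences were large. By a test against a change of 4-fold, 2985 genes (18.0%) were more than 4-fold higher in the lung and 1667 genes (10.1%) more than 4-fold higher in the liver. These percentages are the background against which the counts of each gene group are read. The fitted log2 difference was at least 10 in size for 481 genes, and the median log2 fold change (lung minus liver) over all genes tested was 0.14. The split between the organs rests on the scaling. Using library totals alone moved the median log2 fold change to 1.54, a shift of 1.40, and gave 10948 genes higher in lung and 2027 higher in liver, so that 84.4% of the calls were on the lung side against 54.9%. For the 4-fold test it gave 5180 and 1018 genes, 83.6% on the lung side against 64.2%. Of the genes named here without a call, 21 with a log2 fold change above 0 were called higher in the lung with library totals. Others with a log2 fold change below 0 were called higher in the lung as well, such as Csf1r, Foxa2 and Ece1. A gene is called here relative to the bulk of genes in its library, not per cell or per amount of RNA.

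**Figure D1:**
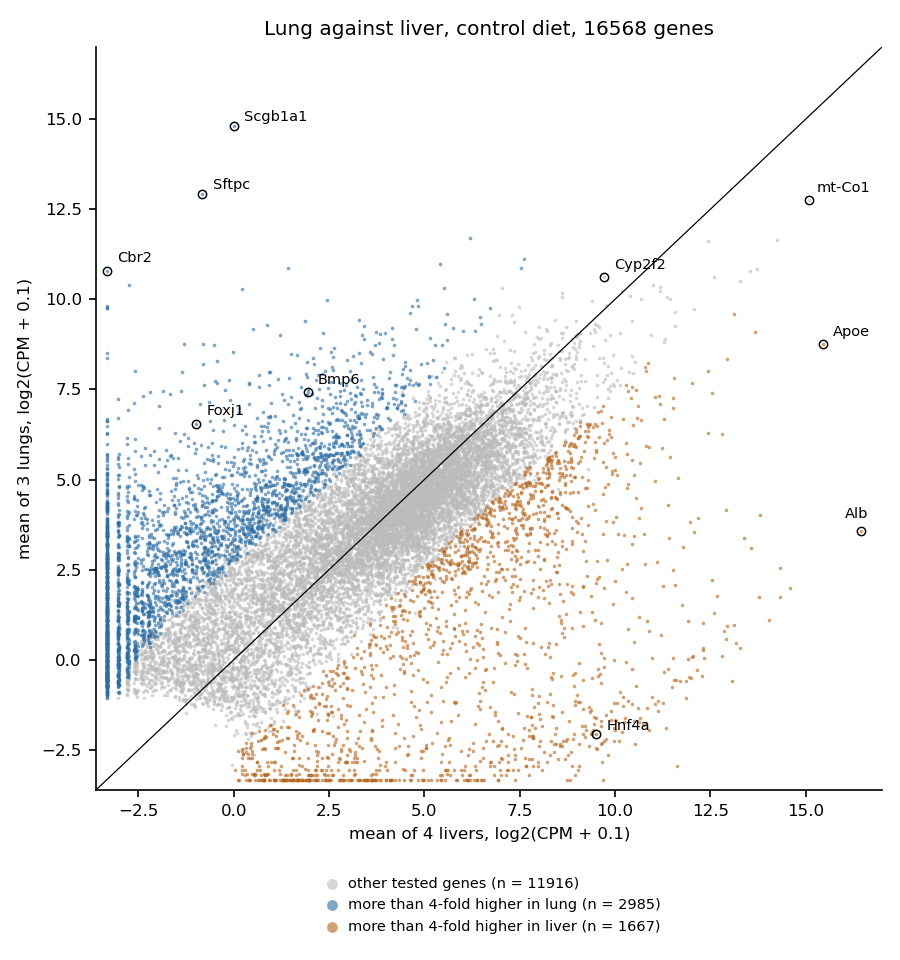
Mean level of each of the 16568 tested genes in 4 livers (horizontal axis) and 3 lungs (vertical axis), both as log2(CPM + 0.1). Each point is a gene, coloured where it was more than 4-fold higher in the lung (2985 genes) or in the liver (1667 genes). Alb lies at the far right and Scgb1a1 at the top, on a scale that raises liver values and lowers lung values against their shares of counts.

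Transcripts were spread less evenly in the liver. The 10 genes with most counts took 16.6 to 28.8% of the counts of a liver and 9.82 to 12.5% of those of a lung, and the first 500 took 65.4 to 70.8% and 40.3 to 42.2%. A liver had 1652 to 1880 genes at or above 100 CPM against 902 to 994 in a lung, while more genes reached 1 CPM in a lung (14254 to 14416) than in a liver (12538 to 13419). These gene numbers rest on the scaling, since the same CPM is a smaller share of the counts in a liver than in a lung. Of the tested genes, 667 had no count in any of the livers and 149 had none in any of the lungs. Serum albumin (Alb) alone made up 5.94% of liver counts, followed by Apoe (2.92%), the mitochondrial gene mt-Co1 (2.25%, with 4.65% in liver replicate 2 and 1.16 to 1.61% in the others, so that its rank rests on that liver) and Apoa1 (1.61%). Serpina3k, Apoa2, mt-Cytb, Bhmt, Cyp2e1 and Mup3 completed the 10 largest, down to 0.919% for Mup3, and mt-Cytb too was highest in liver replicate 2 (2.67% against 0.621 to 0.904%). In the lung the secretoglobin Scgb1a1 led with 5.04%, followed by surfactant protein C (Sftpc, 1.36%) and mt-Co1 (1.19%). Lysozyme 2 (Lyz2), mt-Cytb, the elongation factor Eef1a1, the hypoxia-responsive factor Epas1, gelsolin (Gsn), Tmsb4x and Sftpa1 followed, between 0.585% for Lyz2 and 0.328% for Sftpa1.

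Of the 12 protein-coding genes with the largest fitted fold change on the lung side, among those with a mean of at least 50 CPM there, 9 had no liver count. A fitted fold against 0 counts is no measured value, so these genes are given by their bounds. Cbr2, a carbonyl reductase of club cells, stood at 1453, 1654 and 2221 CPM in the lungs, at least 25158-fold higher than in the livers, where it had 0 counts (bound from 3 counts over the group). Scgb3a2, a secretoglobin, Sec14l3, a lipid transfer protein, and Cxcl15, a chemokine of the lung epithelium, were at least 12676, 12412 and 12458-fold higher. The airway protein Bpifa1, the alveolar claudin Cldn18, the factor Nkx2-1, the sodium channel subunit Scnn1g and the cilia gene Ccdc153 were also at 0 in every liver, with bounds from 1262-fold for Ccdc153 to 5259.8-fold for Bpifa1. Bpifa1 varied most among them, at 123, 835 and 144 CPM, with lung replicate 2 far above the others. Scgb1a1, Sftpb and Sftpc, which completed the 12, had between 2 counts (Sftpb) and 37 counts (Scgb1a1) over the 4 livers, and the fold of Scgb1a1, at 32247, was above every bound given here. On the liver side, 6 of the 12 were major urinary proteins (Mup7, Mup10, Mup14, Mup15, Mup16 and Mup17), pheromone carriers whose near-identical copies share reads, so that their single values are uncertain. Mup10 ranged from 1.21 to 1806 CPM among the livers, and without lung replicate 1 its edgeR adjusted p was 0.0567. The others were the urocanate hydratase Uroc1 with 1 lung count against 20852 liver counts, Lect2, a hepatocyte-secreted chemotactic protein (at least 5271-fold), the steroid dehydrogenases Hsd3b3 and Hsd3b5 (at least 3981 and 2958-fold), the sterol exporter subunit Abcg8 (at least 3072-fold) and Cyp1a2, with 3 lung counts against 22736 liver counts.

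Plasma proteins lay far on the liver side. All 29 tested of 30 listed members were more than 4-fold higher in the liver, with a median log2 fold change of -11.33 against 0.14 over all genes. They took 12.3 to 14.2% of the counts of a liver and 0.0148 to 0.0345% of those of a lung. Alb had 77045, 101744, 96079.7 and 86263 CPM in the livers and 34.8, 0.182 and 0.384 in the lungs (log2 fold change -12.90 with a standard error of 2.45, edgeR adjusted p = 0.00144). The groups were far apart, and lung replicate 1 held nearly all lung counts of Alb. Transferrin (Trf, the iron carrier) had 1213, 6068, 842 and 2631 CPM against 26.1, 16.6 and 15.9, and retinol binding protein 4 (Rbp4) 7090.3, 5918, 6767 and 11118 against 21.3, 15.7 and 16.5, so that these members kept a steady low level in all lungs. Without lung replicate 1 the median of the group moved from -11.33 to -13.28, and all tested members remained more than 4-fold higher in the liver (29 of 29).

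Clotting genes divided between the organs. Of 32 tested members, 23 were more than 4-fold higher in the liver and 5 in the lung (3 without lung replicate 2). Prothrombin (F2), at 2587, 1634, 2774 and 2968 CPM in liver and 1.21, 0.334 and 0.512 in lung, factors IX, X, XI and XII (F9, F10, F11, F12) and antithrombin (Serpinc1) were all on the liver side, with log2 fold changes from -8.11 for F10 to -12.74 for F12. On the lung side were von Willebrand factor (Vwf, 9.36, 14.5, 5.64 and 10.2 CPM against 302, 330.4 and 271, log2 fold change 4.92 with a standard error of 0.33, edgeR adjusted p = 3.07e-06), tissue factor (F3, log2 fold change 3.37), thrombomodulin (Thbd, 6.76) and tissue plasminogen activator (Plat, 6.99). The products of these genes are known to act on, or be stored in, the vessel wall. Factor VIII (F8), which liver sinusoidal endothelium makes, was higher in the liver (8.60, 6.36, 9.23 and 6.25 CPM against 0.651, 0.820 and 0.832). Protein S (Pros1) was near the same level in both, at 99.8, 53.6, 128 and 142 and 87.1, 91.4 and 82.4 CPM (adjusted p = 0.447 by edgeR, and 0.0204 without liver replicate 2, with a log2 fold change of -0.51).

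Complement genes showed a graded pattern. The terminal components C8a, C8b, C8g and C9 and the lectin pathway genes Mbl1, Mbl2 and Masp2 had lung levels of at most 0.992 CPM (C8g in lung replicate 3), against 578, 919.8, 522 and 1314 CPM for C8g in the livers. C3, the central component, stood at 9157, 4911, 9733 and 7493 CPM in the livers and still at 308, 372 and 297 in the lungs (log2 fold change -4.59), and C1qa, C1qb and C1qc of macrophages differed by -1.22 to -1.46, differences that library totals removed (-0.05 to 0.18). The lung was higher for Cd55, which protects cells from complement (5.62, 11.5, 6.72 and 7.66 CPM against 53.6, 46.5 and 57.5, log2 fold change 2.74 with a standard error of 0.26, edgeR adjusted p = 2.42e-05), and for Cfd, factor D of fat cells, at 38.6, 45.4 and 4.99 CPM with lung replicate 3 lowest. In all, 18 of 29 tested members were more than 4-fold higher in the liver and 2 in the lung. Among acute phase proteins the liver side held 14 of 17. Saa3 and Lcn2 did not pass the test. Saa3 was called higher in the liver without liver replicate 3 (log2 fold change -1.48, edgeR adjusted p = 0.0377) and by the DESeq2 Wald test (-1.20, adjusted p = 0.0404). Lcn2, an iron-scavenging protein of neutrophils and epithelium, had 28.9, 141, 16.8 and 16.0 CPM in livers and 53.7, 58.1 and 74.0 in lungs. Without liver replicate 2, the high liver value, Lcn2 was higher in the lung (log2 fold change 1.58, edgeR adjusted p = 0.000403). Haptoglobin (Hp) was abundant in both, with 9345, 14231, 5658 and 6444 CPM against 824, 651 and 859.

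Genes of lipoproteins took 6.49 to 12.1% of liver counts and 0.211 to 0.268% of lung counts. Of 28 tested members, 21 were more than 4-fold higher in the liver, with a list median of -9.36 (-8.21 with members at 0 counts in a tissue set to their bound). Apoa1, the main protein of high density lipoprotein, had 17539, 38238, 18756 and 24191 CPM in livers and 11.5, 0.0304 and 0.160 in lungs, again with the highest lung value in replicate 1. Apoe, which macrophages also make, kept a clear lung level, at 446, 465 and 382 CPM against 38349, 54021, 36720.5 and 49308 (log2 fold change -6.69 with a standard error of 0.73, edgeR adjusted p = 5.08e-05). Genes that act at the capillary wall were on the other side. Lipoprotein lipase (Lpl) had 15.6, 16.1, 21.3 and 39.9 CPM in livers and 194, 288 and 188 in lungs (log2 fold change 3.27 with a standard error of 0.37, edgeR adjusted p = 6.53e-05), and Gpihbp1, which carries this lipase to the capillary surface, had 18.9, 17.2, 18.0 and 22.8 and 123, 139 and 121. Their groups did not overlap. The VLDL receptor (Vldlr, log2 fold change 3.10) and endothelial lipase (Lipg, 1.91) were also higher in the lung, while Scarb1, the receptor for high density lipoprotein (-2.75), was higher in the liver.

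Every tested gene of bile acid synthesis and transport (21 of 21, with 1 listed gene, Hsd3b7, not tested) was more than 4-fold higher in the liver, with a median of -11.25 (-11.14 with members at 0 counts in a tissue set to their bound). Without lung replicate 1 the median was -12.97. Cyp7a1, the rate-limiting enzyme, varied widely among livers, at 257, 107, 48.5 and 12.3 CPM, with 0 to 0.118 CPM in lungs. The bile salt export pump (Abcb11) was steadier, at 466, 595, 526 and 551 CPM against 0.296, 0 and 0, and so was Abcc3, which kept 41.4, 33.2 and 44.2 CPM in lungs against 342, 229, 426 and 299. For the urea cycle and amino acid breakdown, 31 of 33 members were more than 4-fold higher in the liver. Carbamoyl phosphate synthetase (Cps1) showed 3116, 694, 7214 and 3846 CPM in livers, with replicate 2 lowest, and 1.10, 0.0304 and 0 in lungs (log2 fold change -13.23 with a standard error of 1.80, edgeR adjusted p = 0.000201). Argininosuccinate synthetase (Ass1), which also serves nitric oxide production, kept 15.1, 11.3 and 15.4 CPM in lungs against 3007, 3228, 5479 and 4367.

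Cytochrome P450 genes of families 1 to 4 made up 2.04 to 3.23% of liver counts and 0.428 to 0.491% of lung counts. Of 46 tested, 39 were more than 4-fold higher in the liver and 5 in the lung, and the list median was -10.88 (-9.91 with members at 0 counts in a tissue set to their bound). Without lung replicate 1 it was -11.80. The lung share rested mainly on Cyp2f2, an enzyme of club cells that also marks periportal hepatocytes. Cyp2f2 had 1231, 266, 1003 and 820.1 CPM in livers and 1546, 1400.0 and 1763 in lungs, and although the groups did not overlap the difference did not pass the test (log2 fold change 0.92 with a standard error of 0.47, edgeR adjusted p = 0.118, and 0.0453 by the DESeq2 Wald test). Cyp4b1 (17.5, 11, 12.6 and 11.7 CPM against 487, 604 and 548), Cyp2s1 (1.11, 1.41, 0.358 and 0.101 against 80.9, 94.6 and 126) and Cyp2b10 (23.2, 14.9, 34.9 and 37.3 against 159.8, 239 and 219) were higher in the lung, as were Cyp1a1 (log2 fold change 3.62) and Cyp1b1 (3.36), which metabolise aromatic hydrocarbons. In the same family as Cyp1a1, Cyp1a2 had 539, 493, 495 and 605 CPM in livers and 3 counts in all lungs together. Cyp2e1, which oxidises ethanol, had 12992, 7876, 16646 and 19174 CPM against 22.9, 22.1 and 3.39, with lung replicate 3 lowest, and Cyp3a11, the main drug-metabolising member of its family, had 2502, 1542, 2985 and 5019 against 1.75, 0 and 0. Reads of the closely related Cyp2c, Cyp2d and Cyp4a genes can be split between copies, so these were read as a group. Of the conjugating enzymes, 35 of 48 were more than 4-fold higher in the liver and only Mgst2 in the lung. The glutathione transferases were the mixed part of this list, with Gsta4, Gstm2 and Gsto1 within -0.31 to 0.23 on the log2 scale and not called (Gsto1 was called without liver replicate 2, at -0.49).

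Beta-oxidation and ketone genes lay on the liver side. The median of 34 tested genes was -3.57, with 26 more than 4-fold higher in the liver. Oxct1, the enzyme that lets tissues other than liver burn ketones, was higher in the lung, at 6.04, 5.85, 4.66 and 4.53 CPM against 50.3, 49.9 and 55.2 (log2 fold change 3.29 with a standard error of 0.20, edgeR adjusted p = 1.88e-06). Genes of cholesterol and fatty acid synthesis had a median of -1.05, which changed sign with library totals (0.36) and was -2.05 in PS mice. Of its 40 genes, 14 were not called, among them the fatty acid synthase Fasn. The late steps of cholesterol synthesis (Ebp, Sc5d and Dhcr7) and the desaturases Fads1 and Fads2 were more than 4-fold higher in the liver, with log2 fold changes from -5.34 for Fads2 to -2.50 for Dhcr7. Scd1, a stearoyl-CoA desaturase, took the most counts of the list in both organs, at 8644, 14224, 13433 and 15491 CPM in livers and 724, 482 and 418 in lungs, whereas Scd2 had 7.83, 2.82, 3.94 and 4.33 and 419, 453 and 342.

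Of 24 factors known to drive hepatocyte genes, 16 were more than 4-fold higher in the liver, 0 in the lung and 5 were not called. Their summed level was 3813 to 4379.8 CPM in livers and 519 to 561 in lungs. Hnf4a, the central nuclear receptor of hepatocytes, had 644, 713, 881 and 672 CPM in livers and 0.326, 0.0304 and 0.0640 in lungs (log2 fold change -12.26 with a standard error of 0.73, edgeR adjusted p = 1.84e-06). Creb3l3, Onecut2, Nr1h4 (the bile acid receptor) and Nr1i3 (a receptor for foreign compounds) had at most 0.355 CPM in a lung (Creb3l3). Foxa3 had 71.2, 97.0, 72.7 and 79.8 CPM in livers and 0.237, 0.273 and 0.0640 in lungs, but its relatives Foxa1 and Foxa2, pioneer factors of both organs, were not called, with Foxa2 at 28.1, 46.6, 33.6 and 40.0 and 28.1, 24.4 and 34.6 CPM. Cebpa was shared at a lower lung level (642, 631, 849 and 596 CPM against 81.4, 86.2 and 98.2). Among all factors more than 4-fold higher in the liver, Atf5 had the highest liver CPM, with a mean of 919. Markers of both liver zones were on the liver side, 12 of 15 pericentral and 12 of 15 periportal genes by more than 4-fold. Tbx3, Ctsc and Cyp2f2 were not called. Cdh1 (E-cadherin, 34.1, 9.08, 38.7 and 31.7 CPM against 216, 182 and 192) was higher in the lung. Axin2 was also called higher in the lung, a call lost with mouse as a block (edgeR adjusted p = 0.0859) and without any 1 of the lungs (0.0670 to 0.0986).

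Many genes of metabolism have a liver form and a relative used more in other tissues, and in several such pairs the more abundant member was a different one in each organ. For 20 pairs of related genes the share of the liver form in the sum of both levels per gene length was computed in each library. Not all pairs serve the same step, since Gamt and Ckb act at linked steps of creatine metabolism, Hsd11b1 and Hsd11b2 run opposite reactions and Elovl2 and Elovl1 elongate different fatty acids. The pairs were picked with the direction of their members known, so their counts only describe them. The shares of livers and lungs did not overlap in any pair, and in 11 pairs the liver form held over 50% in every liver and under 50% in every lung. The liver pyruvate kinase (Pklr against Pkm) was the least complete switch on the liver side, at 79.1% ± 10.9 (SD, n = 4) in livers and 0.308% ± 0.256 (SD, n = 3) in lungs.

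The majority also passed from the liver form to the other form for glycogen synthase (Gys2 and Gys1, 99.1% of the liver form in livers against 1.03% in lungs), the methionine adenosyltransferases (Mat1a and Mat2a, 99.2% against 7.04%), the transferrin receptors (Tfr2 and Tfrc, 97.7% against 1.14%) and the lipases (Lipc and Lpl, 98.2% against 0.919%). Gys1 and Lpl were themselves higher in the lung (log2 fold changes 2.32 and 3.27), but Mat2a and Tfrc were not called (0.15 and 0.23). Connexin 32 (Gjb1) gave way to connexin 43 (Gja1), at 99.9% against 24.3%. In other pairs the liver form stayed in the majority in the lung as well. Cox4i1 made up 73.0% ± 2.58 of cytochrome c oxidase subunit 4 in lungs, where the lung form Cox4i2 had 33.9, 38.9 and 34.9 CPM, and 100% in livers, where Cox4i2 had 0 counts. Hsd11b1, which activates glucocorticoids, made up most of its pair with the inactivating Hsd11b2, at 98.9% in lungs against 99.99% in livers. Scd1 fell from 99.96% to 59.5% ± 5.93 of its pair with Scd2 between liver and lung.

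**Figure D2:**
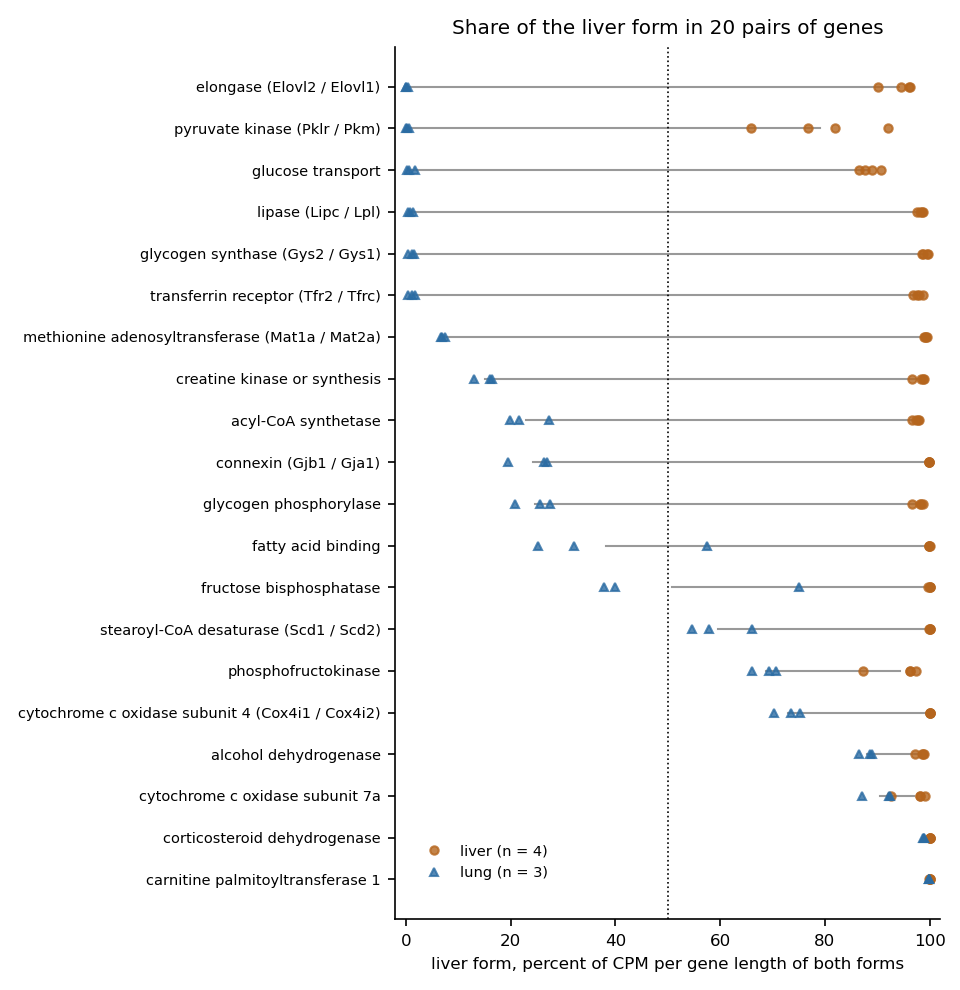
Share of the liver form in the sum of both forms (percent of CPM per gene length, linear axis from 0 to 100) for 20 pairs of related genes, with 1 point per library (4 livers, 3 lungs) and a line joining the tissue means. The points of livers and lungs do not overlap in any pair, and in 11 pairs every liver lies above 50% and every lung below it.

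Genes of the lung epithelium lay mostly on the lung side. Of 24 tested genes of surfactant and type 2 cells, 17 were more than 4-fold higher in the lung and 1 in the liver, with a median of 7.71. Surfactant protein C (Sftpc) had 0.255, 0.504, 0 and 1.11 CPM in livers and 8138, 7609 and 7719 in lungs (log2 fold change 14.05 with a standard error of 0.98, edgeR adjusted p = 3.90e-06). Surfactant protein B (Sftpb) had 1313, 1362 and 1339 CPM in lungs and 2 counts over all livers, a ratio of 28587-fold (95% exact counting interval 7913 to 236052). The collectins Sftpa1 and Sftpd, which bind microbes, had 1691, 1841 and 2116 and 463, 474 and 605 CPM in lungs and at most 4.84 (Sftpa1, liver replicate 2) in a liver. Not every gene of surfactant lipid handling followed. The lipid transporter Abca3 was higher in the lung but by less (39.5, 14.2, 58.9 and 17.7 CPM against 113, 116 and 117, log2 fold change 1.82 with a standard error of 0.45, edgeR adjusted p = 0.00568), Ctsh and Fasn were not called (Ctsh was higher in the liver by -0.77 without liver replicate 2), and Scd1 was higher in the liver. Igfbp2 was the type 1 cell marker that ran the other way (1319, 595, 1187 and 2351 CPM in livers against 178, 137 and 144 in lungs, log2 fold change -3.15 with a standard error of 0.49, edgeR adjusted p = 0.000462). Of the 18 tested genes of that list 16 were more than 4-fold higher in the lung, with most counts on Ager, a receptor at the base of type 1 cells, at 0.170, 3.33, 0.269 and 0.504 CPM against 1017, 1402 and 1295. The water channel Aqp5, the membrane gene Pdpn and Hopx (log2 fold changes 10.64, 8.22 and 3.28) were among them, while Vegfa, which signals to capillaries, was higher by only 1.47.

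Airway secretory genes took 5.45 to 8.18% of lung counts, the largest share among the 57 gene lists, with 18 of 25 tested genes more than 4-fold higher in the lung and a median of 7.11 (6.46 with members at 0 counts in a tissue set to their bound) (6.43 without lung replicate 2). Scgb1a1 alone had 0.596, 0.504, 0 and 2.52 CPM in livers and 24113, 24768 and 37921 in lungs, with lung replicate 3 highest (log2 fold change 14.98 with a standard error of 1.36, edgeR adjusted p = 1.71e-05). The flavin monooxygenase Fmo2 (12.6, 26.8, 34.8 and 24.7 CPM against 662, 937 and 758) and the mucin Muc5b (0 counts in livers, 34.7, 54.7 and 28.1 in lungs) were lung genes. Enzymes that club cells share with hepatocytes were not. Fmo1 had 255, 294, 349.9 and 263 CPM against 269, 383 and 308, and the retinal dehydrogenase Aldh1a1 1826, 987, 1524 and 2243 against 919.9, 1045 and 1138, neither called except for Aldh1a1 without liver replicate 2 (-0.86) and Fmo1 with library totals (1.54), while cytochrome P450 reductase (Por, log2 fold change -2.71) and the receptor that carries IgA across epithelium (Pigr, -4.99) were higher in the liver.

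Genes of motile cilia summed to 17.2 to 50.5 CPM in livers and 972 to 1467 in lungs. The median of the 51 tested was 7.79 (7.01 with members at 0 counts in a tissue set to their bound). With so few liver counts they passed the filter on low counts mainly through the lung, so their directions are not counted. Foxj1, the master factor of ciliated cells, had 0.766, 0, 0.358 and 0.504 CPM in livers and 69.1, 97.8 and 114 in lungs (log2 fold change 7.79 with a standard error of 0.53, edgeR adjusted p = 3.30e-06). Of the cilia genes whose promoters are printed above, Dynlrb2 had 23.3, 26.5 and 34.4 CPM in lungs and 2 counts in all livers, and Dnah10, Sntn and Hydin had 17.2, 19.5 and 25.4, 16.3, 20.3 and 24.4 and 15.1, 18.6 and 23.3 CPM in lungs and 0 in livers. Tppp3, a tubulin-binding protein, had the highest CPM of the list (260.0, 312 and 367). Ccdc151, a docking protein of dynein arms, was the member that was not called, at 4.34, 16.9, 5.11 and 5.24 CPM in livers and 5.39, 6.17 and 7.39 in lungs. Markers of basal airway cells were scarce. Of Krt5, Krt14, Krt15 and Trp63, which define basal cells, none passed the filter on low counts, and the neuroendocrine gene Calca was low (1.95, 2.85 and 2.56 CPM) but at 0 in livers.

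**Figure D3:**
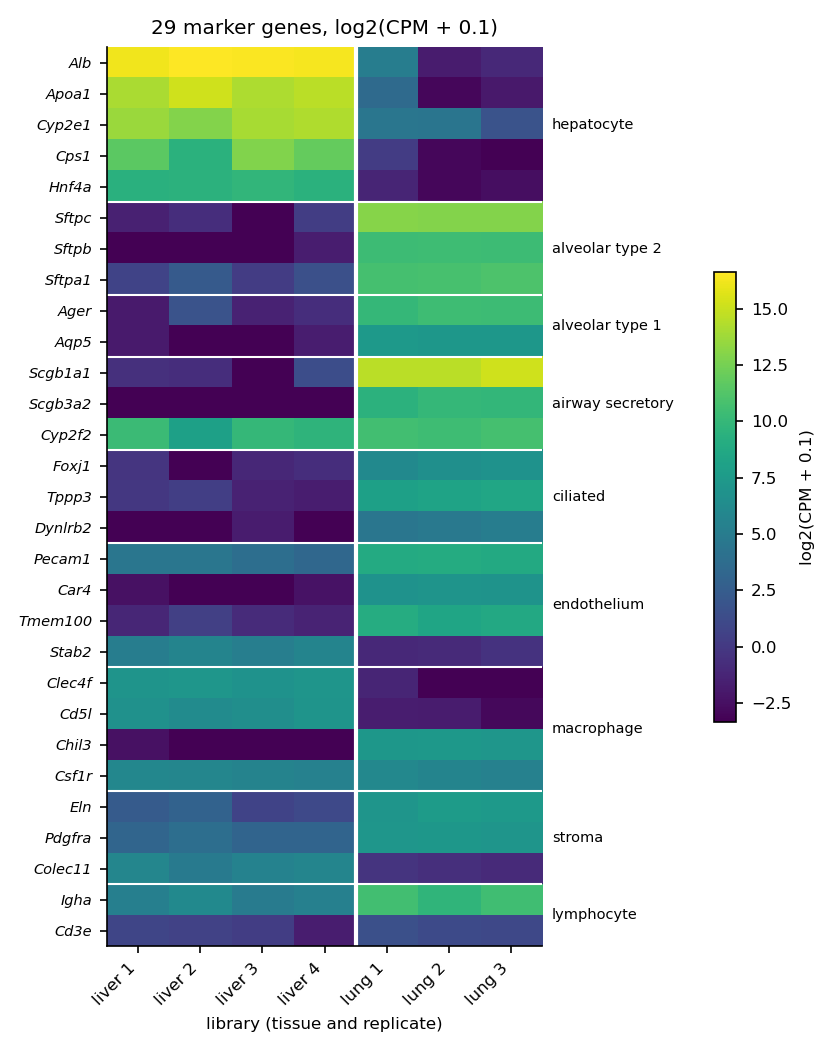
Level of 29 marker genes (rows, grouped by cell type) in the 4 livers and 3 lungs (columns), coloured by log2(CPM + 0.1). Hepatocyte markers are bright in the livers and dark in the lungs, except for faint values in lung replicate 1 and of Cyp2e1, and the epithelial, ciliated and capillary markers of the lung show the reverse.

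Factors known from lung development ranged from absent in the liver to shared. Nkx2-1, the factor that defines lung epithelium, had 109.5, 93.4 and 104 CPM in lungs and 0 counts in livers, and Tbx5 and Sox2 were also at 0 in livers (at least 254 and 260.0-fold). Foxf1, of lung mesenchyme and capillaries, had 4.34, 3.43, 3.58 and 3.12 CPM against 289, 209.9 and 230.0 (log2 fold change 6.06 with a standard error of 0.24, edgeR adjusted p = 6.07e-07). Tbx4 had 41.4, 60.0 and 46.4 CPM in lungs and 1 count in livers, whereas Tbx3 was not called. Gata6 was higher in the lung by 0.86 (edgeR adjusted p = 0.0192), but the adjusted p was 0.0627 with mouse as a block and 0.0503 to 0.0579 without any 1 of the lungs. Sox9 was higher in the liver (-4.01). In all, 17 of 26 were more than 4-fold higher in the lung. Hox genes are known to record the position of a tissue along the body axis. The 39 listed summed to 5.96, 13.9, 3.85 and 5.84 CPM in livers and 84.8, 93.2 and 82.0 in lungs, without overlap. With so few liver counts the 14 that could be tested passed the filter mainly through the lung, so their directions are not counted. Hoxa5 had the highest lung CPM of the list, at 0.0851, 0.706, 0.358 and 0.504 CPM in livers and 33.6, 36.1 and 34.7 in lungs (log2 fold change 6.41 with a standard error of 0.41, edgeR adjusted p = 2.62e-06). No member from Hoxa9, Hoxb9 or Hoxc4 onward in those clusters passed the filter.

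General and capillary endothelial genes had higher levels in the lung. Of 25 tested general endothelial genes 19 were more than 4-fold higher in the lung and 0 in the liver (median 3.74). Pecam1 had 22.6, 23.1, 14.7 and 9.98 CPM in livers and 477, 502 and 448 in lungs (log2 fold change 4.76 with a standard error of 0.34, edgeR adjusted p = 4.28e-06), and Cdh5, the cadherin of endothelial junctions, 23.7, 17.1, 17.6 and 15.3 and 431, 463 and 385. Flt4 and Nos3, the nitric oxide synthase of endothelium, were not called, but were higher in the lung without liver replicate 2 (0.62 and 2.05). Capillary genes of the lung went further (median 5.50), such as carbonic anhydrase 4 (Car4, 113, 128 and 124 CPM in lungs and 2 counts in livers), the apelin receptor Aplnr (29.0, 30.1 and 29.6 CPM, at 0 in livers) and Tmem100 (0.340, 1.31, 0.448 and 0.302 against 520.5, 332 and 416). Genes of liver sinusoidal endothelium were higher in the liver, by more than 4-fold for 8 of 19. The scavenger receptor Stab2 had 35.2, 50.8, 37.7 and 49.9 CPM in livers and 0.385, 0.425 and 0.672 in lungs (log2 fold change -6.44 with a standard error of 0.33, edgeR adjusted p = 9.52e-07), and Clec4g 44.3, 42.3, 40.8 and 47.4 and 1.10, 0.820 and 1.12. Lyve1, often used as a sinusoidal and lymphatic marker, was higher in the lung (4.26, 5.35, 6.09 and 2.52 CPM against 268, 259.6 and 194, log2 fold change 5.72 with a standard error of 0.33, edgeR adjusted p = 1.66e-06), and so was Bmp6 (5.51), while Stab1 and Gpr182 were not called (Gpr182 was higher in the lung by 0.65 without liver replicate 2).

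Fibroblast and matrix genes were on the lung side. Of the collagen and elastic fibre list 22 of 37 genes were more than 4-fold higher in the lung and 2 in the liver. Elastin (Eln), which gives the lung its recoil, had 5.28, 7.47, 1.52 and 2.02 CPM in livers and 134, 196 and 170.0 in lungs (log2 fold change 5.35 with a standard error of 0.52, edgeR adjusted p = 2.65e-05). The chains of alveolar basement membrane Col4a3 and Col4a4 differed by 6.82 and 6.83, and Col1a1 by 3.27. The 2 members more than 4-fold higher in the liver were Col18a1, the source of endostatin, at 1408, 1421, 1869.5 and 1256 CPM in livers against 21.6, 25.2 and 19.6 in lungs (log2 fold change -6.07 with a standard error of 0.37, edgeR adjusted p = 1.94e-06), and Col5a3 (-4.74). Of 16 stellate cell genes, 7 were more than 4-fold higher in the liver, 2 in the lung (desmin, Des, 3.33, and the receptor Pdgfrb, 2.62, which pericytes also express) and 4 were not called. Decorin (Dcn) and Lrat, which stores vitamin A in stellate cells, were not called (both were higher in the liver without liver replicate 2, by -0.53 and -0.70), while Colec11 (58.2, 28.8, 46.0 and 55.5 CPM against 0.711, 0.547 and 0.416), Hand2 (-5.66) and Reln (-2.55) were higher in the liver. Pdgfra, a receptor of lung fibroblasts, had 8.85, 14.4, 8.42 and 8.36 CPM in livers and 142, 152 and 134 in lungs, and Fgf10 had 0 and 15.2, 11.6 and 10.6. Gelsolin (Gsn), an actin-severing protein, had 55.1, 38.1, 28.3 and 46.8 and 1742, 2239.8 and 2030.0.

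**Figure D4:**
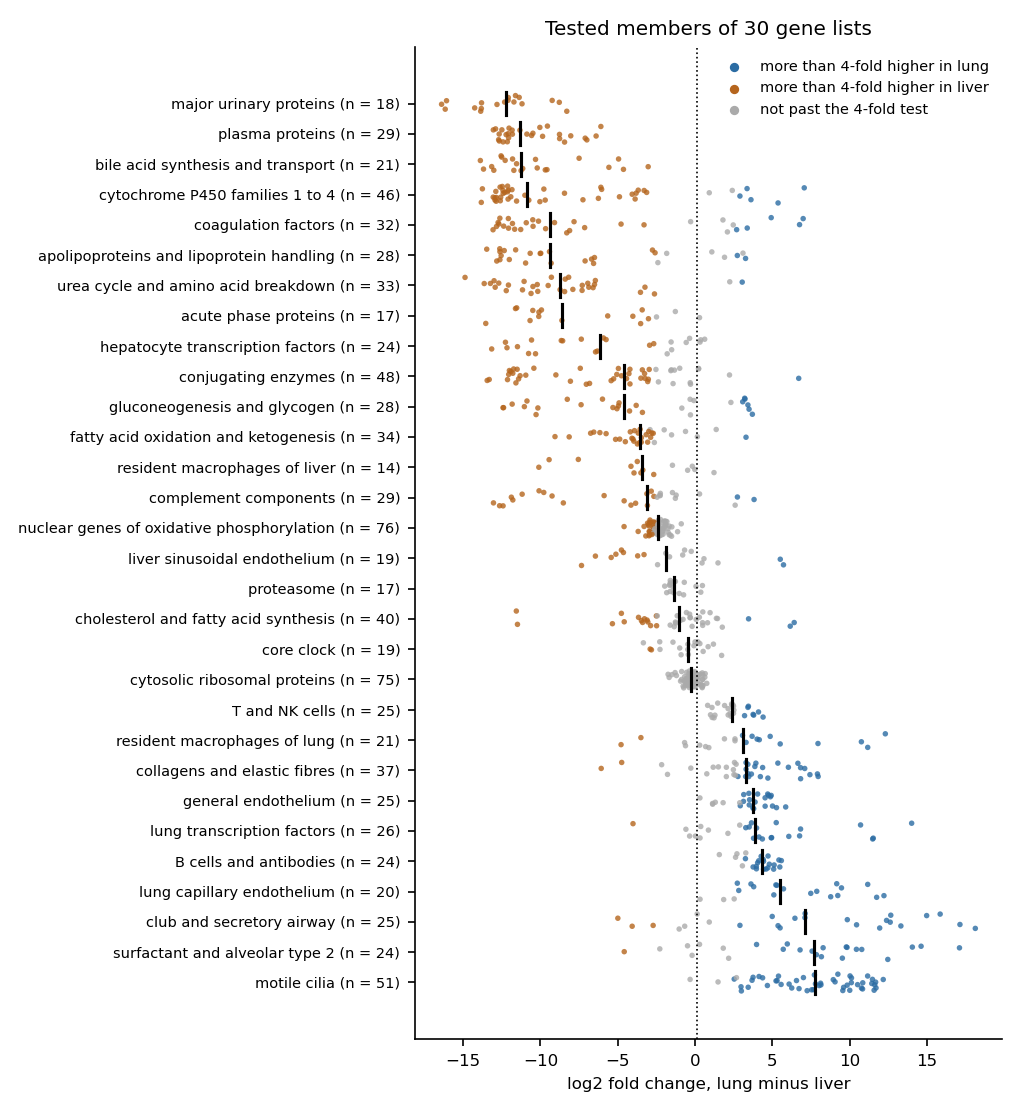
Log2 fold change (lung minus liver) of every tested member of 30 gene lists, with 1 point per gene and a bar at the list median, and a dotted line at the median of all 16568 genes (0.14). Hepatocyte lists lie far to the left, epithelial lists far to the right, and ribosomal proteins (median -0.23) lie near 0.

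Each organ showed the macrophage genes known for it, next to shared ones. Clec4f, of liver Kupffer cells, had 127, 144, 113 and 133 CPM in livers and 0.326, 0 and 0 in lungs (log2 fold change -10.10 with a standard error of 0.83, edgeR adjusted p = 9.41e-06), and Cd5l and Vsig4 behaved likewise (-9.44 and -7.55). Chil3, of alveolar macrophages, had 149, 156 and 143 CPM in lungs and 1 count over the livers, a ratio of 6396-fold (95% exact counting interval 1148 to 252665). Siglecf, their surface marker, was low at 3.17, 2.82 and 3.01 CPM. Csf1r, the receptor that all macrophages need, was near the same level in both organs (59.1, 58.0, 49.8 and 42.5 CPM and 62.1, 50.6 and 42.6, log2 fold change -0.02), as was Adgre1 (-0.18), although with library totals both were higher in the lung (1.38 and 1.21). Marco, listed for alveolar macrophages, was higher in the liver (28.2, 74.6, 13.4 and 20.1 CPM against 4.83, 2.46 and 1.70). In all 9 of 14 Kupffer genes were more than 4-fold higher in the liver, and 11 of 21 alveolar macrophage genes in the lung, several of which (Krt19, Car4 and Cd9) epithelium or capillaries also express.

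Lymphocyte genes were higher in the lung. B cell and antibody genes had a median of 4.34, with 19 of 24 more than 4-fold higher. The heavy chain constant gene of IgA (Igha), the antibody of mucosal surfaces, had 38.3, 72.6, 31.0 and 41.5 CPM in livers and 1505, 873 and 1458 in lungs (log2 fold change 4.80 with a standard error of 0.40, edgeR adjusted p = 1.08e-05), and Jchain, which joins IgA units, 12.3, 27.0, 8.33 and 14.6 and 597, 349.6 and 670.1. Ighm, of IgM, was not called, with 11.3, 197, 7.26 and 18.3 CPM in livers. Without liver replicate 2, the high one, it was higher in the lung by 3.81. Variable segments summed to 16.8, 9.08, 15.2 and 7.46 CPM in livers and 401, 318 and 591 in lungs for the kappa chain, and to 6.55, 0.807, 8.06 and 2.92 and 203, 161 and 302 for the heavy chain. Their single segments are not counted here, because 63 of 160 kappa and 56 of 183 heavy segments passed the filter on low counts, and with so few liver counts they passed mainly through the lung. T and NK cell genes differed less, with a median of 2.36, and Cd3e, Cd8a, Trbc1, Nkg7, Gzmb and Klrb1c were not called. Of these, Cd8a, Trbc1, Nkg7 and Klrb1c were called higher in the lung without liver replicate 2, with log2 fold changes from 1.81 for Nkg7 to 3.52 for Trbc1. Trbc1 was also called by the DESeq2 Wald test, without a filter and over all 15 libraries, and library totals called all 6 higher in the lung. Of 19 neutrophil and monocyte genes, 13 were more than 4-fold higher in the lung and 1 in the liver (fibronectin, Fn1, which hepatocytes also make). S100a8 varied among lungs, with 60.5, 15.6 and 56.7 CPM against 0.851, 1.31, 0.806 and 1.91 in livers (log2 fold change 5.19 with a standard error of 0.53, edgeR adjusted p = 3.68e-05). MHC class II genes were higher in the lung (Cd74, 203, 129.8, 91.6 and 69.0 CPM against 939, 733 and 604). Toll-like receptor genes were mixed, with a median of 0.50. Tlr4, the endotoxin receptor, was higher in the lung (1.62, 0.504, 1.97 and 1.01 CPM against 13.7, 10.7 and 12.3), while Lbp, which presents endotoxin to it, was higher in the liver (-3.01), as was Tlr12 (-4.61).

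Several hormone systems had their parts divided between the organs. Angiotensinogen (Agt), the precursor of angiotensin, had 1290.4, 2294, 1173 and 1273 CPM in livers and 0.563, 0.577 and 0.384 in lungs (log2 fold change -11.52 with a standard error of 0.56, edgeR adjusted p = 8.98e-07), and Ace, the enzyme that makes the active peptide, had 1.53, 1.41, 1.52 and 0.806 and 522, 683 and 539 (log2 fold change 8.77 with a standard error of 0.33, edgeR adjusted p = 6.07e-07). Kininogen (Kng1), the source of the kinins that Ace breaks down, was a liver gene (-12.62). Endothelin 1 (Edn1) had 0.511, 1.21, 0.627 and 0.504 CPM in livers and 25.0, 29.2 and 29.3 in lungs. Insulin-like growth factor 1 (Igf1) had 693, 1102, 648 and 1073 CPM in livers and 7.37, 5.62 and 7.14 in lungs, and its receptor Igf1r 2.47, 5.75, 2.87 and 2.42 and 65.6, 51.3 and 48.5, so ligand and receptor ran in opposite directions. The glucagon receptor (Gcgr, -10.28) and the growth hormone receptor (Ghr, -3.08) were higher in the liver. In iron handling, hepcidin (Hamp), the liver hormone that lowers iron uptake, had 269, 864, 315 and 837 CPM in livers and 0.711, 0.729 and 0.288 in lungs, while Bmp6, which is known to induce it, was a lung gene in this comparison (5.53, 1.82, 4.66 and 2.92 CPM against 201, 164 and 149.7). Genes of heme synthesis and breakdown had a median of -2.42, with 7 of 16 more than 4-fold higher in the liver. Junction genes divided as well. The gap junction genes Gjb1 (832, 493, 889 and 942 CPM against 2.58, 1.85 and 1.41) and Gjb2 (-7.63), N-cadherin (Cdh2, -4.77) and Cldn1 (-3.34) were on the liver side, and Cldn18 (0 counts in livers, 374, 322 and 299.8 CPM in lungs), Epcam (4.03) and Tjp1 (2.55) on the lung side.

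Ribosomal protein genes were near the median of all genes, and the direction of the ribosomal, proteasome and clock lists rested on the scaling. Cytosolic ribosomal protein genes had a median of -0.23 with 0 of 75 past the 4-fold test in either direction, and the median was 1.20 with library totals, 0.10 with mouse as a block and 0.06 without liver replicate 4. They took 1.29 to 2.37% of liver counts and 3.80 to 4.09% of lung counts. Of 17 proteasome genes, 12 were called higher in the liver and 0 in the lung, with a median of -1.39 (0.03 with totals), and the immunoproteasome subunits Psmb8, Psmb9 and Psmb10 were not called (Psmb9 and Psmb10 were higher in the lung without liver replicate 2, by 0.77 and 0.62). Core clock genes had -0.46 (0.95 with totals), and Arntl, Clock and Per2 were not called (Arntl was higher in the liver without liver replicate 2, by -0.57). All 76 of 76 nuclear genes of oxidative phosphorylation were called higher in the liver, with a median of -2.42 (-0.99 with totals). By more than 4-fold there were 23, a count that fell to 13 without liver replicate 4 and to 12, 12 and 15 without lung replicates 1, 2 and 3 in turn. Genes of the mitochondrial genome, among them mt-Co1 (16454, 72082, 23029 and 26595 CPM in livers, 6679, 6349 and 7529 in lungs), had a median of -2.50, -1.06 with totals and -1.88 without liver replicate 2, whose values were highest.

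**Figure D5:**
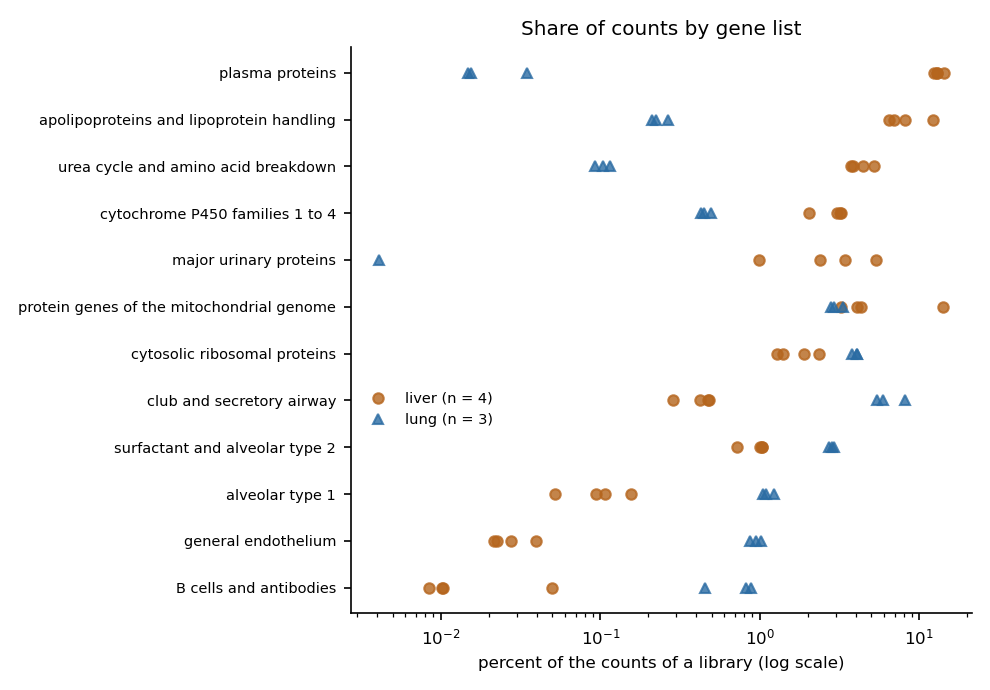
Percent of the counts of each library (logarithmic axis) that fell on 12 gene lists, with 1 point per library for the 4 livers and 3 lungs (both lungs without a count of a major urinary protein gene, replicates 2 and 3, have no point in that row). Plasma proteins take 12.3 to 14.2% of liver counts, club and secretory genes 5.45 to 8.18% of lung counts, and ribosomal proteins differ by less than the organ-restricted lists.

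Markers of neighbouring tissues were also measured. Heart muscle genes, which veins of the mouse lung also express, were present in all lungs and nearly absent from livers, with Myh6 at 29.0, 33.2 and 16.8 CPM and Actc1 at 35.2, 51.4 and 42.9 in lungs. Their summed level was 1.25 to 4.94 CPM in livers and 140.0 to 210.3 in lungs. With so few liver counts the tested members passed the filter mainly through the lung, so their calls are not counted. Skeletal muscle genes were high in lung replicate 3 alone, where Ckm had 35.6 CPM against 1.27 and 1.73, and their summed level was 6.37, 9.32 and 324 CPM in the 3 lungs. Fat cell genes were lowest in the same lung, with Adipoq at 7.99, 11.5 and 1.18 CPM. The part of these tissues in the lung calls was not tested. Of 14 skeletal muscle genes 6 could be tested, 4 of them without a liver count, so their calls are not counted. Of 12 tested fat cell genes 6 were more than 4-fold higher in the lung, with a median of 3.20, but in PS mice the median was 0.20 and 1 of the 4-fold calls was made again. The number was 7 without lung replicate 3, and 4 without liver replicate 1, 3 or 4 or lung replicate 1 or 2. Of 13 genes of mesothelium, which covers the lung, and of lymphatic vessels, 9 were more than 4-fold higher in the lung (such as Upk1b, 28.7, 32.6 and 19.5 CPM there) and 2 in the liver. Their summed levels overlapped, at 444 to 657 CPM in livers and 439 to 620 in lungs. Of 17 pancreas and gut genes 5 were tested, and 4 of them (Apoa4, Fabp2, Cela1 and Lgals4) were more than 4-fold higher in the liver, with most counts on Apoa4, an apolipoprotein that liver also makes. The pancreas genes Ins1, Ins2, Pnlip and Amy2a5 had 0 counts in all 7 libraries. Alpha globin (Hba-a1), a sign of blood, had 176, 277, 106 and 93.5 CPM in livers and 556, 773 and 676 in lungs.

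The comparison was repeated in PS mice, which share no library with the CS mice. There, 3312 of 16593 genes (20.0%) were more than 4-fold higher in the lung and 1870 (11.3%) in the liver. Of the 2985 lung genes of CS mice, 2711 were tested in PS mice, all 2711 had the same direction and 2466 were again more than 4-fold higher, which is 82.6% of the CS genes and 74.5% of the PS genes. Of the 1667 liver genes, 1648 were tested, all 1648 had the same direction and 1496 passed again (89.7% and 80.0%). Sftpc, Foxj1, Alb and Cps1 had log2 fold changes of 17.74, 7.62, -15.15 and -14.51 in PS mice against 14.05, 7.79, -12.90 and -13.23 in CS mice.

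The difference between the organs itself depended on the diet for 4 of 17696 genes (0.0226%, edgeR term of tissue by diet over all 15 libraries). Msmo1, a C-4 sterol oxidase of cholesterol synthesis, had a log2 fold change (lung minus liver) of -0.33 in CS and -2.83 in PS mice, a difference of 2.58 in the joint fit over both diets (standard error 0.39, edgeR adjusted p = 0.0296). Insig1, which retains the sterol sensor in the endoplasmic reticulum, had -1.25 and -3.15 (difference 1.98, standard error 0.29, edgeR adjusted p = 0.0296). The third gene with a larger liver excess in PS mice was 1810008I18Rik (-3.57 and -6.24), and Adck5, of the aarF domain kinase family, had a smaller one (-3.40 and -1.35). Msmo1 had 24.8, 21.2, 46.1 and 21.4 CPM in CS livers and 116, 81.1, 136, 98.5 and 134 in PS livers, without overlap. In lungs it had 25.0, 19.2 and 23.5 CPM in CS and 19.3, 16.7 and 11.7 in PS mice. The count of such genes rests on the test, since 233 were called by the DESeq2 Wald test.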

How the data were processed

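Total RNA was taken from pieces of frozen liver and lung with Trizol, and messenger RNA was captured on poly-T beads and sequenced as read pairs after library preparation with a kit that does not mark strand, so reads of a gene and of an overlapping or antisense gene cannot be told apart. The authors aligned reads with HISAT2 2.0.5 to the mouse genome (mm10 by the submitters' processing notes) and counted read pairs per gene with featureCounts 1.5.0-p3. The values used are the deposited counts, which are not normalised, and the gene lengths of the same tables. Tables of the authors' FPKM values, fold changes and p-values were not used.

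The liver and lung tables, each with 54532 genes, were joined by gene identifier. Totals of the 7 control diet libraries were 15366668 to 19396057 counts. CPM are counts per 1000000 counts after scaling by TMM factors (trimmed mean of M-values) in edgeR 4.0.16, run in R 4.3.3. Genes with too few counts were dropped by filterByExpr, and lung was set against liver with the robust quasi-likelihood test and Benjamini-Hochberg adjustment, called at an adjusted p under 0.05. A second test (glmTreat) asked for a fold change above 4. Where all libraries of a tissue had no count, the fold is a lower bound against 3 counts over the tissue. Intervals of ratios of low counts are exact at 95% and, like these bounds, cover counting error only. Each library of a tissue came from another mouse. The mice CS01, CS02 and CS04 gave both organs by the labels, and the correlation of the deviations of their liver and lung from the tissue means was 0.10 (CS01), -0.00097 (CS02) and -0.04 (CS04) over 16568 genes, so a fit with mouse as a block was run as an alternative.

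The other alternatives were DESeq2 1.42.0, its size factors, library totals alone, no filter, a filter asking for 10 counts or more in all libraries of a tissue, all 15 libraries in the fit, and each library left out. The tests were tried on simulated counts for this comparison: of 100 genes changed by 4 on the log2 scale, edgeR called 98, and 8 of 100 changed by 1, among 16075 genes. Apart from the changed genes both simulated organs had the same profile, so the trial does not cover the scaling between organs of unlike profile. Named genes are members of 57 gene lists and 20 gene pairs, the 12 with the largest fold change in each direction among protein-coding genes past the 4-fold test with a mean of at least 50 CPM in the higher organ, the 10 with the largest share of counts per organ, and those whose organ difference depended on the diet. These members and lists were chosen with earlier results of these data known, so counts over a list describe it and are not independent evidence. Some genes are not reported here. Promoter sequences are from RefSeq (GRCm38.p6).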

Additional observations from a re-analysis of the deposited data

Results flagged for a closer look

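In 36 of 267 sets of 4 liver values (levels of named genes, summed levels of gene lists and library measures), 1 liver lay far from the other 3, where chance marks about 1 in 20 such sets. Groups of 3 lungs were not examined in this way. The liver of replicate 2 was the distant one in most. It had 15961 genes with a count against 18250 to 18601 in the other livers, and 14.4% of its counts came from mitochondrial genes. Summed over gene lists, it had 218512 CPM for protein genes of the mitochondrial genome, 3760 for pancreas and gut genes, 776 for B cells and antibodies and 50.5 for motile cilia, each above the other livers, and 24246 for coagulation factors, 4458 for club and secretory genes and 741 for neutrophil and monocyte genes, each below them.

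Among single genes, liver replicate 2 was high for Ighm (197 CPM against 7.26 to 18.3 in the other livers), Lcn2 (141), Col5a3 (139), Stab1 (104), Agt (2294), Ccdc151 (16.9), Saa3 (16.5), Pdgfra (14.4), Nos3 (11.7), Igf1r (5.75), Klrb1c (3.83) and Ager (3.33). It was low for the terminal complement genes C8a (506), C8b (97.3) and C9 (304), for Fn1 (699.9) and for Thbd (2.22).

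Liver replicate 1 was high for Mup10, with 1806 CPM against 1.21 to 6.85, and for Klf6, with 14.6 CPM. Liver replicate 3 was high for the sterol genes Insig1 (128 CPM) and Msmo1 (46.1). Liver replicate 4 was high for Serpina1a (5470.1 CPM), Serpinc1 (3751), Gsta4 (63.8), Cela1 (54.2) and the summed list of lung macrophage genes (343), and low for Ace (0.806).

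In 4 genes the difference between lung and liver differed between the diets by the edgeR term of tissue by diet. The log2 fold change of lung over liver was larger in CS than in PS mice by 2.75 for 1810008I18Rik, 2.58 for Msmo1 and 1.98 for Insig1, and the CS value minus the PS value was -1.98 for Adck5.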

How the results depend on the processing

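Scaling decided the balance between the organs. With library totals in place of TMM factors the median of all genes moved by 1.40 on the log2 scale, 10948 genes were higher in the lung and 2027 in the liver, and by more than 4-fold 5180 and 1018. List medians then rose above 0 for cholesterol and fatty acid synthesis (0.36), core clock (0.95), ribosomal proteins (1.20) and proteasome (0.032). So did the log2 fold changes of Adgre1 (1.21), Arntl (0.95), C1qb (0.18), C1qc (0.13), Clock (1.33), Csf1r (1.38), Dcn (1.13), Ece1 (1.12), Fasn (1.20), Foxa2 (1.06), Gstm2 (1.13), Gsto1 (1.09), Ier2 (1.37), Insig1 (0.15), Junb (1.41), Lrat (0.83), Msmo1 (1.06), Myc (1.23), Pros1 (1.13), Stab1 (1.17) and Zfp36 (0.50). Of these genes C1qb, C1qc, Insig1 and Zfp36 lost their call toward the liver. The other genes just named had no call before and were called higher in the lung. Another 3 named genes lost their call (C1qa, mt-Co1 and mt-Cytb). A further 21, with log2 fold changes already above 0, gained a lung call (Cd3e, Cd8a, Ctsc, Cyp2f2, Flt4, Fmo1, Foxa1, Gpr182, Gsta4, Gzmb, Ighm, Klrb1c, Lcn2, Nkg7, Nos3, Psmb8, Psmb9, Psmb10, Tbx3, Tfrc and Trbc1), with log2 fold changes from 1.49 for Psmb8 to 3.54 for Trbc1.

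With the replicate block (mouse as the block, 6 libraries), 4912 genes were higher in the lung and 3846 in the liver, 2167 and 1377 of them by more than 4-fold. The block reversed the median of ribosomal proteins, to 0.10, and ended the calls of Axin2, Gata6, mt-Co1 and mt-Cytb, and the other 261 of 265 named genes kept direction and call. Leaving out 1 library at a time gave 5201 to 6693 genes higher in the lung and 4068 to 5452 in the liver, and the median of ribosomal proteins ran from -0.35 to 0.057, the highest without liver replicate 4. The calls of Axin2, Fos, Gata6, Mup10, mt-Co1 and Zfp36 were lost without some of these libraries. The DESeq2 Wald test gave 6326 and 4853 genes, and it called 233 genes for the tissue by diet term, against 4 with edgeR. The cause of that difference was not tested. DESeq2 size factors, the stricter filter, no filter and the fit over all 15 libraries kept every count within 1.5 times, and without a filter the calls of Ckm, Fos and Mup10 were lost. Low counts limit genes near 3 counts over a tissue, equal to 0.0702 CPM in livers and 0.0306 in lungs.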

Other observations

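Genes of vasoactive peptides and their receptors lay on both sides. Of 21 tested members, 11 were more than 4-fold higher in the lung and 3 in the liver (edgeR). The liver members were the precursors angiotensinogen (Agt) and kininogen (Kng1) and the angiotensin receptor Agtr1a, with 110.3, 82.7, 123 and 129.7 CPM in livers against 7.99, 12.8 and 10.5 in lungs (log2 fold change -3.42 with a standard error of 0.27, edgeR adjusted p = 7.51e-06). The lung held the converting enzyme Ace, the endothelins Edn1 and Edn3, and prostacyclin synthase (Ptgis, log2 fold change 4.80). The calcitonin receptor-like receptor Calcrl, a receptor of adrenomedullin, had 616, 621 and 614 CPM in lungs against 13.4, 9.69, 8.51 and 10.9 in livers, and its partner Ramp2 had a log2 fold change of 4.87. The clearance receptor of natriuretic peptides, Npr3, stood at 324, 48.2 and 66.8 CPM in lungs and 5.96, 0.605, 1.88 and 1.11 in livers, without overlap. The endothelin-converting enzyme Ece1 did not pass the test, with 273, 254, 351 and 250.5 CPM in livers and 264, 239 and 195 in lungs.

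Immediate early genes answer to stimuli and to handling within minutes. Of 19 tested members, 9 were higher in the lung (35.3% of all genes were) and 5 of them by more than 4-fold (18.0% of all genes were), so these counts are not read as a result about the group, and 1, Zfp36, was higher in the liver (log2 fold change -0.90, edgeR adjusted p = 0.0185, and 0.50 when libraries were scaled by their totals). The Zfp36 call was lost without liver replicate 1, lung replicate 2 or lung replicate 3, with edgeR adjusted p from 0.0663 to 0.0931. The 5 with over 4-fold were Ier3, Btg2, Klf2, Klf4 and Klf6, of which Klf4 had 2.55, 0.404, 2.06 and 2.22 CPM in livers and 226, 195 and 175 in lungs. Fos had 18.7, 4.64, 1.16 and 7.15 CPM in livers and 69.2, 25.2 and 19.1 in lungs (log2 fold change 2.25 with a standard error of 0.76, edgeR adjusted p = 0.0265), a call that was lost without lung replicate 1 (log2 fold change 1.49, edgeR adjusted p = 0.150), without liver replicate 4 (0.0766) or without a filter on low counts (0.0568). Junb, Egr1, Ier2 and Myc had log2 fold changes from -0.17 to -0.01 that did not pass the test.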
